A study of Mus musculus with 10 samples.

Results

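The 43 genes described here encode collagens, laminins and other proteins of the extracellular matrix, with the enzymes and inhibitors that remodel it. They were taken from a list of symbols, and all 43 were found among the 49585 genes counted. By role they fall into fibrillar and interstitial matrix (15 genes), basement membrane (16 genes), matricellular proteins (4 genes) and remodelling enzymes and inhibitors (8 genes). The series concerns early and macroscopic lesions of hepatocellular carcinoma in mice that lack the Rb gene family, and bulk RNA was sequenced from 10 samples in 5 groups of 2. The libraries compared were Sox9-derived organoids against Ck19-derived organoids, 2 each, where organoids are epithelial structures grown in culture, Sox9 is a transcription factor found in duct and progenitor cells of the liver, and Ck19 is the duct keratin encoded by Krt19. A further pair of columns, named Sox9 with a TKO tag that the labels do not explain, matched the Sox9-derived samples by name. Those 2 TKO-tagged Sox9 libraries were set against both organoid pairs. Every group shares the same protocol text: livers or lesions were digested, and YFP-positive cells, a reporter of Cre recombination of floxed alleles, were sorted by flow cytometry. No treatment was given. Strain, age, the Cre driver and the alleles of each library are not given in the sources used here, and the labels call the organoids primary liver cells. The sorted Epcam- and Thy1-based groups (6 samples) were not analysed here.

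In the liver, fibrillar collagens and the small proteoglycans that decorate them are made mainly by stellate cells and portal fibroblasts. Bile duct epithelium, by contrast, rests on a basement membrane, a sheet of type IV collagen and laminin trimers (one alpha, one beta and one gamma chain) linked by nidogens and the proteoglycans perlecan and agrin. Epithelial cells also secrete proteases such as matrilysin, and the TIMP proteins inhibit matrix metalloproteinases.

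To show the regulatory sequence beside members whose levels separate the library pairs, the 250 bases upstream of the annotated start are printed for 5 members chosen after their values were seen, 5′ to 3′. They come from RefSeq on GRCm38.p6, whose table held 29 of the 43 members; Lama4 and Dcn have no entry. All 5 genes lie on the plus strand: Col16a1 at chr4:130047590-130047839, Timp1 at chrX:20869916-20870165, Mmp7 at chr9:7691840-7692089, Col3a1 at chr1:45311288-45311537 and Nid1 at chr13:13437352-13437601. Capitals mark matches on either strand to 4 motifs. For AP-1 the letters searched were TGANTCA, where N is any base. For the GC box they were GGGCGG. For the other two, they were CCAAT and, for the TATA box, simply TATAAA.
Col16a1: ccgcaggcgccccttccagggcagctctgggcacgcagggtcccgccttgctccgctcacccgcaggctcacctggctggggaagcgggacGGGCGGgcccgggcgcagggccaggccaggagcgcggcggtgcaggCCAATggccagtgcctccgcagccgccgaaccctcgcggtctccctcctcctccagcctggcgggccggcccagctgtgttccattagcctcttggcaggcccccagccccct
Timp1: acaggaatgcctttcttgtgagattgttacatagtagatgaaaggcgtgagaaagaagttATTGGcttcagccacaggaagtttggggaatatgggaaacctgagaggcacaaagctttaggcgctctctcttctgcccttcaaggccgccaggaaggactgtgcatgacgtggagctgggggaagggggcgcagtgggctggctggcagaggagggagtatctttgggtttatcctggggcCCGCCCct
Mmp7: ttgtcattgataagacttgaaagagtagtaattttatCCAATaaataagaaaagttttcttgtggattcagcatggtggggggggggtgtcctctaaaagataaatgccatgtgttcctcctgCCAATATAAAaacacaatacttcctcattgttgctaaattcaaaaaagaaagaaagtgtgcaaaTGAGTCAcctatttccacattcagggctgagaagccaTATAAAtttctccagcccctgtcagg
Col3a1: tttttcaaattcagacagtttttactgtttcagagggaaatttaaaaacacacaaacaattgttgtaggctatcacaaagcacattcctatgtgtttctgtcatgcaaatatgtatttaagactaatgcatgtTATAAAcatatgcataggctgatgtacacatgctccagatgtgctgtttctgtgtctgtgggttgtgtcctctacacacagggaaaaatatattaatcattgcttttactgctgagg
Nid1: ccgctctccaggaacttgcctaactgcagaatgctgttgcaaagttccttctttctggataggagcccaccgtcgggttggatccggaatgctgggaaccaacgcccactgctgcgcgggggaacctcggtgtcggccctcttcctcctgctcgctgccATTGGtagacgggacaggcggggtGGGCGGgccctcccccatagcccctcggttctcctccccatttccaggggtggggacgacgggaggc
The same windows of 32851 RefSeq promoters held these motifs in 6.75% (AP-1), 32.7% (GC box), 33.8% (CCAAT) and 12.4% (TATA box). The Mmp7 window held 1 AP-1 match at -63 to -57 from the start, 2 CCAAT matches and 2 TATA matches, of which a CCAAT and a TATA match overlap by 1 base at -123. The Col16a1, Timp1 and Nid1 windows each held 1 GC box and 1 CCAAT match. The Col3a1 window held 1 TATA match, at -117 to -112. A match describes letters and does not show that a factor binds.

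Library totals were 53280136 and 59664959 fragments in genes for the TKO-tagged Sox9 libraries, 36606008 and 33154972 for the Sox9-derived organoids, and 31883180 and 32747944 for the Ck19-derived organoids. Levels below are CPM, fragments scaled to these totals. Rb1, of the gene family that the series names as knocked out, stood at 4.50 and 5.40 CPM in the TKO-tagged libraries, 14.5 and 12.6 CPM in the Sox9-derived and 21.0 and 21.8 CPM in the Ck19-derived organoids. Rbl1 ran from 0.687 to 4.05 CPM and Rbl2 from 1.73 to 8.77 CPM over the 6 libraries; whole-gene counts do not test a deleted exon. Duct markers fitted the organoid label, with Epcam at 2669 and 3833 CPM in Sox9-derived and 2324 and 2101 CPM in Ck19-derived organoids. The TKO-tagged libraries went against it, with Epcam at 8.99 and 5.62 CPM and the hepatocyte product Alb at 21740 and 13158 CPM, so they are called by their column name only. The X-inactivation transcript Xist stayed under 1 CPM in the TKO-tagged and Sox9-derived libraries, against 60.3 and 57.1 CPM in Ck19-derived libraries, while the Y-linked Eif2s3y had 62.2 to 92.4 CPM in those 4 and under 0.1 CPM in Ck19-derived libraries. In the comparisons of Sox9-derived and of TKO-tagged with Ck19-derived libraries, the sex of the source animals and the group therefore cannot be told apart. The labels do not say whether the 2 libraries of a pair are from separate animals or cultures. The p-values set each difference against the spread within pairs, which may be only technical, so they may not extend to other animals or cultures.

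Basement membrane transcripts were abundant in every library, fibrillar transcripts were highest in the TKO-tagged pair, and remodelling transcripts were highest in the organoids. Summed over the class, basement membrane genes reached 626.8 and 494.0 CPM in the TKO-tagged libraries. They reached 706.5 and 535.5 CPM in the Sox9-derived and 568.6 and 423.0 CPM in the Ck19-derived organoids, so on library totals these ranges overlap. TMM scaling, used for the calls, gave factors of 0.750 and 0.788 to the TKO-tagged and 1.28 and 1.32 to the Ck19-derived libraries. With the Sox9-derived pair the factors were 0.739 and 0.777 against 1.325 and 1.314. Dividing by these factors puts the TKO-tagged sums above both organoid pairs, so the overlap depends on the scaling. Fibrillar genes summed to 462.5 and 252.8 CPM in the TKO-tagged libraries, 74.3 and 90.4 CPM in the Sox9-derived and 35.6 and 26.0 CPM in the Ck19-derived organoids, with no overlap between pairs. Between the organoid pairs, that order holds for the sum and not for most of its genes. Of the 6 fibrillar genes tested there, 3 log2 fold changes were above 0 and 3 below, with a median of -0.38. Over all 15, the median log2 of CPM plus 0.1 was -2.26 and -2.64 in the Sox9-derived libraries. In the Ck19-derived libraries it was higher, at -0.89 and -1.54. Remodelling genes ran the other way for the TKO-tagged libraries, at 143.9 and 72.0 CPM, against 947.8 and 852.7 CPM in the Sox9-derived and 769.7 and 809.7 CPM in the Ck19-derived organoids. Matricellular genes summed to 827.3 and 441.1 CPM in the TKO-tagged libraries, 210.8 and 29.0 CPM in the Sox9-derived and 73.6 and 27.6 CPM in the Ck19-derived organoids, where the organoid pairs overlap. The ratio of basement membrane to fibrillar CPM was 1.36 and 1.95 in the TKO-tagged libraries, 9.52 and 5.93 in the Sox9-derived and 16 and 16.3 in the Ck19-derived organoids. In bulk RNA, fewer cells of a type and less RNA per cell cannot be told apart.

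**Figure D1:**
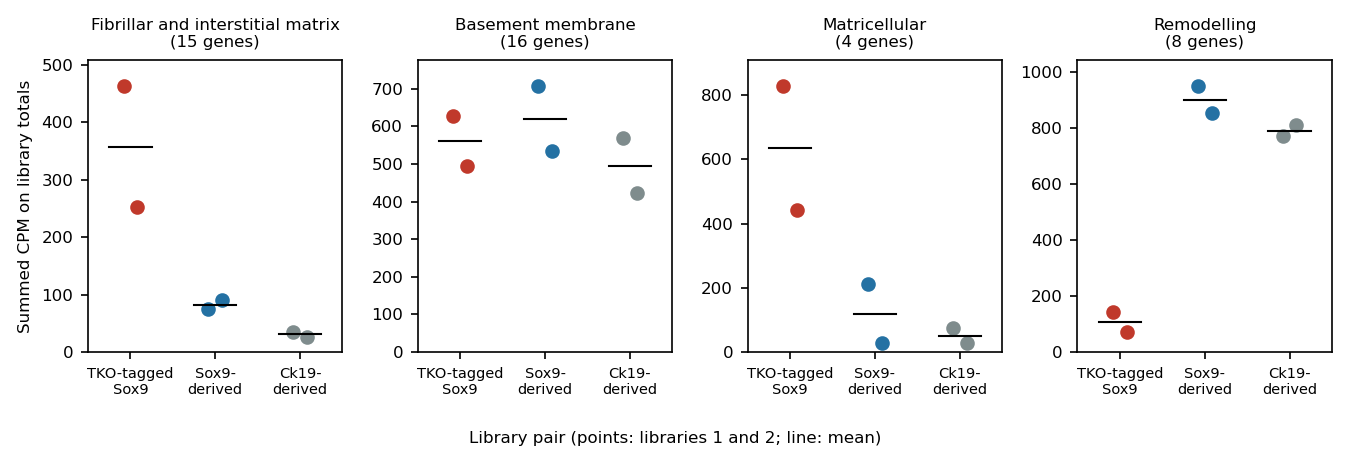
Summed CPM on library totals (vertical axis, from 0) of the 4 classes of matrix genes in the TKO-tagged Sox9, Sox9-derived and Ck19-derived pairs; points are libraries and lines are means. Fibrillar sums were 462.5 and 252.8 CPM in the TKO-tagged libraries and at most 90.4 CPM in the organoids. Basement membrane sums overlapped between all pairs on library totals, though not after division by the TMM factors.

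Which genes lead also differed between the pairs. On the per-length scale (mean CPM per kilobase of exon, which allows levels of different genes to be compared), the highest in the TKO-tagged pair were Sparc at 151.7, Dcn at 64.1 and Col18a1 at 32.3. In the Sox9-derived organoids they were Timp2 at 118.6, Mmp7 at 49.6 and Timp1 at 45.0. In the Ck19-derived organoids they were Mmp7 at 212.0, Timp2 at 85.1 and Mmp14 at 32.3. The leading genes of the organoids were thus a secreted protease, a membrane protease and their inhibitors, and those of the TKO-tagged pair were a collagen-binding glycoprotein, a proteoglycan and a basement membrane collagen. Of the 15 fibrillar genes, 14 reached 1 CPM in each TKO-tagged library, against 4 and 3 in the Sox9-derived and 4 in each Ck19-derived organoid library. For basement membrane genes, 15 of 16 reached 1 CPM in each TKO-tagged library, against 13 and 12 in the Sox9-derived and 13 in each Ck19-derived library.

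**Figure D2:**
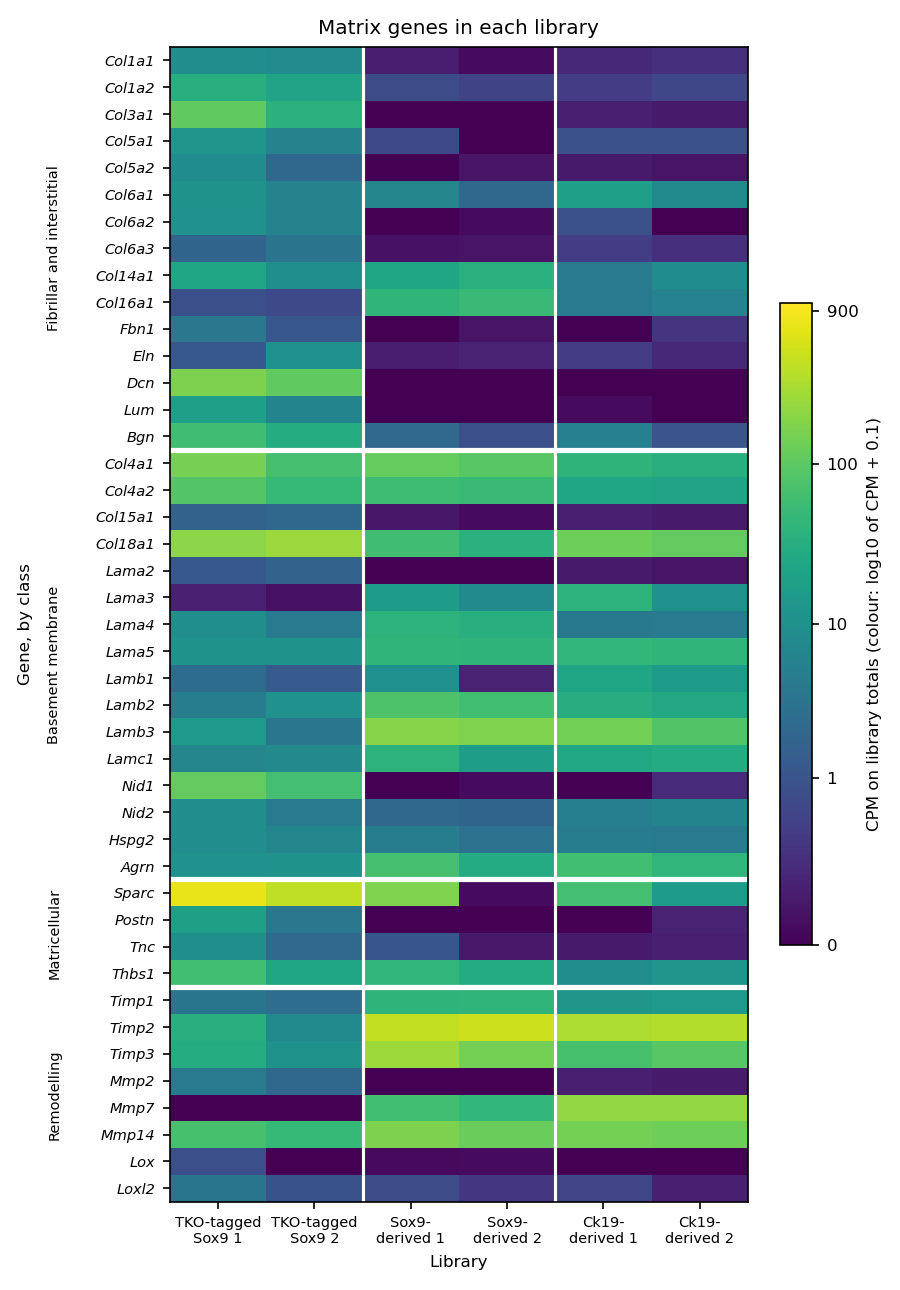
CPM of the 43 matrix genes (rows, by class) in the 6 libraries (columns), coloured on a log scale after adding 0.1 CPM. Dcn, Col3a1 and Nid1 are bright in the TKO-tagged Sox9 libraries and at or near 0 in the organoids, Mmp7 shows the reverse, and Sparc and Lamb1 differ between the 2 Sox9-derived libraries.

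Between the organoid pairs, 2 matrix genes rose in the Sox9-derived organoids and 1 fell. They were Col16a1, a collagen associated with fibrils, Lama4, a laminin alpha chain best known from vessels and mesenchyme, and Mmp7 (matrilysin), a small secreted protease of epithelia. Of the 43 genes, 27 passed the filter on low counts, and 3 of these were called by edgeR's quasi-likelihood test (Benjamini-Hochberg adjusted p under 0.05 over all genes tested), beside 0.570% of the 16653 genes tested. By direction, the background was 0.186% called higher and 0.384% called lower. The median log2 fold change of the 27 was 0.29, beside 0.006 over all genes tested. At an unadjusted p under 0.05 the count was 13 of the 27, and 2792 over all genes. The count of matrix genes called was 12 without the first Sox9-derived library, 9 without the second, and 0 without either Ck19-derived library (11 and 13 at an unadjusted p under 0.05).

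Col16a1 (ENSMUSG00000040690, chromosome 4, 130047840 to 130099283, GRCm38) had 41.6 and 52.1 CPM in Sox9-derived organoids, against 4.39 and 5.83 CPM in Ck19-derived organoids. Both Sox9-derived libraries lay far above both Ck19-derived ones (log2 fold change 3.20, SE 0.30, edgeR adjusted p = 0.0406). Lama4 (ENSMUSG00000019846, chromosome 10, 38965515 to 39110188) had 38.2 and 32.7 CPM in Sox9-derived and 4.02 and 4.37 CPM in Ck19-derived organoids, again without overlap (log2 fold change 3.08, SE 0.27, edgeR adjusted p = 0.0389). Mmp7 (ENSMUSG00000018623, chromosome 9, 7692090 to 7699585) fell to 61.8 and 44.0 CPM in Sox9-derived organoids, against 224.7 and 228.1 CPM in Ck19-derived organoids. Its log2 fold change was -2.10 (SE 0.22, edgeR adjusted p = 0.0467), and 11.5% of its exon bases are shared with the gene AV064505, from which unstranded counts cannot separate it. All 3 calls were lost when either Ck19-derived library was left out, with edgeR adjusted p between 0.401 and 0.467 and log2 fold changes between 3.02 and 3.38, 3.03 and 3.11, and -2.12 and -2.10.

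**Figure D3:**
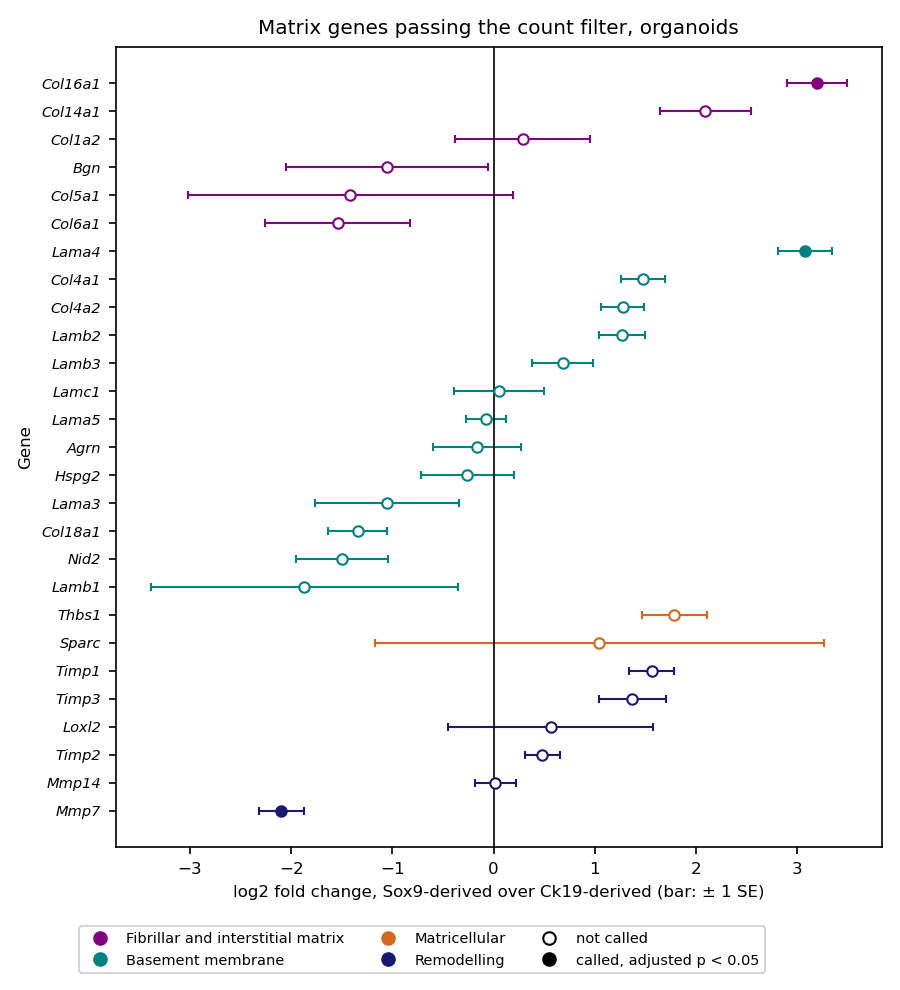
Log2 fold change, Sox9-derived over Ck19-derived organoids (horizontal axis, bars ± 1 SE, n = 2 libraries each), of the 27 matrix genes that passed the count filter, coloured by class. Filled points mark Col16a1 at 3.20, Lama4 at 3.08 and Mmp7 at -2.10; Sparc and Lamb1 have the wide bars of genes that differ within a pair.

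Among the other fibrillar genes 5 passed the filter without a call and 9 were below it in the organoids. Col14a1, another fibril-associated collagen, had 22.1 and 34.3 CPM in Sox9-derived and 4.55 and 8.70 CPM in Ck19-derived organoids (log2 fold change 2.09, SE 0.45, edgeR adjusted p = 0.128). Col6a1, a chain of the beaded-filament collagen VI, had 6.64 and 2.17 CPM in Sox9-derived and 17.7 and 7.82 CPM in Ck19-derived organoids, and did not pass (log2 fold change -1.54, SE 0.72, edgeR adjusted p = 0.365). Col14a1 and Col16a1 together made up 85.8% and 95.6% of the fibrillar fragments in the Sox9-derived libraries, against 25.1% and 55.9% in the Ck19-derived. The chains of the classical fibrils stayed low: Col1a1 was at most 0.244 CPM and Col1a2 at most 0.710 CPM in the 4 organoid libraries, and Dcn (decorin) had 0 fragments in all 4.

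Basement membrane genes differed in both directions between the organoid pairs. Of 13 tested, 6 log2 fold changes were above 0 and 7 below, with a median of -0.07. By edgeR 1 was called, beside 0.570% of all genes tested, and 6 had an unadjusted p under 0.05, beside 16.8%. DESeq2 called 5 of the 13, beside 9.08% of all genes tested. The type IV collagen chains Col4a1 and Col4a2 are transcribed divergently from starts that overlap by 22 bases. Col4a1 had 111.9 and 90.5 CPM in Sox9-derived and 39.6 and 32.8 CPM in Ck19-derived organoids (log2 fold change 1.48, SE 0.22, edgeR adjusted p = 0.0772). Col4a2 had 56.7 and 48.7 CPM in Sox9-derived and 22.1 and 21.4 CPM in Ck19-derived organoids (log2 fold change 1.28, SE 0.21, edgeR adjusted p = 0.0937). Neither gene overlapped between pairs, and neither was called by edgeR, while DESeq2 called both (adjusted p = 1.20e-06 and 3.19e-05), and edgeR with no count filter called Col4a1 (adjusted p = 0.0206). Their per-kilobase ratio, Col4a1 to Col4a2, was 1.56 and 1.23 in the TKO-tagged, 1.75 and 1.65 in the Sox9-derived and 1.59 and 1.36 in the Ck19-derived libraries. Col18a1, the collagen whose C-terminal fragment is endostatin, had 58.6 and 35.5 CPM in Sox9-derived and 130.5 and 108.1 CPM in Ck19-derived organoids (log2 fold change -1.34, SE 0.29, edgeR adjusted p = 0.131).

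Laminin chains covered a wide range of levels. Lamb3, the beta chain of the epithelial laminin that anchors hemidesmosomes, was the highest laminin chain of the list per kilobase in both organoid pairs, at 27.0 CPM per kilobase in the Sox9-derived and 16.8 in the Ck19-derived, followed by Lamb2, another beta chain, at 11.2 and 4.65. It had 188.2 and 168.7 CPM in Sox9-derived and 139.9 and 81.8 CPM in Ck19-derived organoids (log2 fold change 0.68, edgeR adjusted p = 0.344). Its alpha partner Lama3 had 15.3 and 7.99 CPM in Sox9-derived and 37.8 and 10.1 CPM in Ck19-derived organoids, which overlap. Lama5, the main alpha chain of mature epithelial basement membranes, had 41.4 and 39.4 CPM in Sox9-derived and 43.7 and 41.4 CPM in Ck19-derived organoids (log2 fold change -0.07, SE 0.19, edgeR adjusted p = 0.890).

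A pair of matrix genes, Sparc and Lamb1, differed more than 10-fold between the Sox9-derived libraries. Sparc, a collagen-binding glycoprotein, had 166.9 and 0.0302 CPM there, from 6110 fragments and 1 fragment, a 5534-fold difference with a 95% exact binomial interval of 993 to 218616 that covers counting error only. In the Ck19-derived organoids it had 64.6 and 15.5 CPM. Lamb1, a widely used laminin beta chain, had 10.2 and 0.151 CPM in the Sox9-derived libraries (373 and 5 fragments, 67.6-fold, interval 28.7 to 209), against 22.6 and 15.0 CPM in the Ck19-derived. Both genes were low in the same library, the second. Neither was called between the pairs (Sparc log2 fold change 1.05, SE 2.22, edgeR adjusted p = 0.862; Lamb1 log2 fold change -1.87, SE 1.52, edgeR adjusted p = 0.599). With the second Sox9-derived library alone on that side, taken to vary like the Ck19-derived pair that then sets the spread, the gap within the pair carried into the fit: Sparc had a log2 fold change of -10.19 (edgeR adjusted p = 8.06e-04) and Lamb1 of -6.91 (edgeR adjusted p = 2.60e-04). Such gaps were seen in 2 of the 24 matrix genes at a mean of at least 1 CPM in the Sox9-derived pair, beside 2.92% of all genes at that level. In the Ck19-derived pair they were seen in 0 of 24 matrix genes, beside 0.808% of all genes, and in the TKO-tagged pair in 0 of 39, beside 3.41%.

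In the remodelling class, the inhibitors were not called by edgeR between the organoid pairs, while DESeq2 called Timp1 and Timp3 (adjusted p = 4.57e-07 and 0.00184), and edgeR with no count filter called Timp1 (adjusted p = 0.0318). Timp1 had 39.4 and 40.6 CPM in Sox9-derived and 13.1 and 14.0 CPM in Ck19-derived organoids, with no overlap (log2 fold change 1.56, SE 0.22, edgeR adjusted p = 0.0753). Timp1 lies on the X chromosome. Timp2 had 423.8 and 500.4 CPM in Sox9-derived and 317.0 and 346.1 CPM in Ck19-derived organoids (log2 fold change 0.48, SE 0.17, edgeR adjusted p = 0.267). Timp3, which binds to matrix and shares 21.3% of its exon bases with Syn3, had 261.4 and 146.6 CPM in Sox9-derived and 67.8 and 89.9 CPM in Ck19-derived organoids (edgeR adjusted p = 0.151). Mmp14, the membrane protease that activates pro-MMP2, had 160.7 and 120.7 CPM in Sox9-derived and 146.3 and 131.5 CPM in Ck19-derived organoids (log2 fold change 0.02, SE 0.21, edgeR adjusted p = 0.980). Its substrate gene Mmp2 was at 0 in both Sox9-derived libraries and at 0.126 and 0.0916 CPM in the Ck19-derived. The crosslinking enzyme genes Lox and Loxl2 stayed under 1 CPM in all 4. In the matricellular class, Thbs1, an adhesive glycoprotein that can activate latent TGF-beta, had 42.8 and 28.9 CPM in Sox9-derived and 8.91 and 11.9 CPM in Ck19-derived organoids (log2 fold change 1.79, SE 0.32, edgeR adjusted p = 0.103).

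Most fibrillar genes were called between the TKO-tagged Sox9 libraries and each organoid pair, but 9 of the 15 passed the count filter only with the TKO-tagged pair. Against the Ck19-derived organoids 42 of the 43 matrix genes passed the count filter, Lox being the exception, and 15 of the 42 passed only because this pair entered the fit, so the counts describe a list that includes genes nearly silent in organoids. On that basis 21 matrix genes rose and 7 fell, beside 28.9% of 17938 genes called (15.0% higher and 14.0% lower). Over the 27 matrix genes that passed the filter without the TKO-tagged pair, 8 rose and 7 fell, beside 9.95% higher and 15.1% lower of the 16086 such genes. Against the Sox9-derived organoids, 17 rose and 7 fell, beside 22.4% of 17333 genes called (13.3% higher and 9.02% lower). Over the same 27, 3 rose and 7 fell, beside 8.11% higher and 9.82% lower of 15606 genes. The comparisons share the TKO-tagged libraries, so the second is no independent repeat of the first. Scaling by library totals in place of TMM moved the median of all genes by -0.755 against Ck19-derived and -0.797 against Sox9-derived organoids. It gave 1960 genes higher and 5161 lower in place of 2683 and 2507, and 1797 higher and 4070 lower in place of 2313 and 1563. For matrix genes it gave 20 higher and 13 lower against Ck19-derived organoids, and 17 higher and 12 lower against Sox9-derived organoids.

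Fibrillar genes entered mostly through the TKO-tagged pair, 9 of the 15 being below the filter between the organoid pairs. Against Ck19-derived organoids 10 of 15 rose and the other 5 were not called, and against Sox9-derived organoids 11 rose and 1 fell. For each class here, the shares of all genes tested were 15.0% higher and 14.0% lower against Ck19-derived organoids. Against Sox9-derived organoids they were 13.3% higher and 9.02% lower. For genes that passed without the TKO-tagged pair, they were 9.95% higher and 15.1% lower, and 8.11% higher and 9.82% lower. Of the 6 that passed without the TKO-tagged pair, Col1a2, Col5a1 and Bgn rose against Ck19-derived organoids, and against Sox9-derived organoids Col1a2 and Bgn rose and Col16a1 fell. Of 16 basement membrane genes, of which Nid1, Lama2 and Col15a1 passed the filter only with the TKO-tagged pair, 6 rose and 5 fell against Ck19-derived organoids, and 4 rose and 3 fell against Sox9-derived organoids. All 4 matricellular genes, Postn and Tnc having passed the filter only with the TKO-tagged pair, rose against Ck19-derived organoids, and 1 rose against Sox9-derived organoids, where Sparc, Tnc and Thbs1 were not called. Of 7 remodelling genes tested, 1 rose and 2 fell against Ck19-derived organoids, and 1 rose and 3 fell against Sox9-derived organoids. The remodelling gene that rose, Mmp2, passed the filter only with the TKO-tagged pair. Leaving out either Ck19-derived library cut the matrix genes called against that pair to 8 and 6, among which Col1a2, Col3a1, Dcn, Nid1 and Mmp7 were called both times. Leaving out either Sox9-derived library cut those called against that pair to 11 and 7, among which the same 5 genes and Col16a1 were called both times.

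Several markers moved with these rises. The 15 stellate, fibroblast and muscle markers summed to 330.8 and 176.5 CPM in the TKO-tagged libraries, 17.8 and 9.77 CPM in the Sox9-derived and 33.3 and 16.9 CPM in the Ck19-derived organoids. In the TKO-tagged libraries 2 and 1 of them were at 0, against 8 and 9 in the Sox9-derived and 5 and 3 in the Ck19-derived; Pdgfra, a defining fibroblast receptor, was at 0 in both TKO-tagged libraries. Of the 10 that passed the filter, 7 rose against Ck19-derived and 8 against Sox9-derived organoids, beside 15.0% and 13.3% of all genes tested. Only 3 of the 15 passed between the organoid pairs, so most of these calls rest on markers that entered through the TKO-tagged pair. Without overlap, 10 of the 15 lay above the Ck19-derived pair and 3 below it, and 11 lay above the Sox9-derived pair and 1 below it. The share of all genes without overlap is not given beside these counts, so they do not set the markers apart from other genes. The 8 endothelial markers summed to 142.9 and 95.1 CPM in the TKO-tagged libraries and under 1 CPM in every organoid library. The 7 myeloid markers summed to 752.1 and 679.5 CPM in the TKO-tagged libraries, 18.4 and 26.7 CPM in the Sox9-derived and 85 and 47.4 CPM in the Ck19-derived. The 8 hepatocyte markers summed to 57018 and 51679 CPM in the TKO-tagged libraries, 275.2 and 627.1 CPM in the Sox9-derived and 259.5 and 287.6 CPM in the Ck19-derived. The sum of the 5 mesothelial markers went the other way. It was 1.65 and 3.64 CPM in the TKO-tagged libraries, 352 and 271.9 CPM in the Sox9-derived and 773.3 and 899.6 CPM in the Ck19-derived. By gene, 1 of 4 tested was called lower against Ck19-derived organoids, beside 14.0% of all genes tested. Against Sox9-derived organoids it was 1 of 3, beside 9.02%. In each comparison 1 log2 fold change was above 0, and none was called higher. The part of all these markers in the matrix results was not tested.

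Decorin, which binds collagen fibrils and limits their width, had the highest CPM of the fibrillar genes in the TKO-tagged libraries. Dcn, Col1a1, Col3a1, Col5a2, Col6a2, Col6a3, Fbn1, Eln and Lum are the 9 fibrillar genes that passed the count filter only with this pair. They entered because they were high in it, so their p-values are no separate support for the direction. Dcn (ENSMUSG00000019929, chromosome 10, 97479500 to 97518162) had 162.5 and 104.7 CPM in the TKO-tagged libraries and 0 fragments in all 4 organoid libraries (edgeR adjusted p = 0.00488 against Sox9-derived and 0.00188 against Ck19-derived). With a floor of 3 fragments over a pair, it was at least 3070-fold higher than in Sox9-derived and at least 2844-fold higher than in Ck19-derived organoids. Col3a1, the chain of collagen III (chromosome 1, 45311538 to 45349706), had 107.3 and 35.9 CPM in the TKO-tagged libraries, 0 in both Sox9-derived and 0.126 and 0.0916 CPM in the Ck19-derived libraries. Its fragment total was at least 1617-fold higher than in the Sox9-derived pair (edgeR adjusted p = 0.0151). It was 642-fold higher than in the Ck19-derived pair (counting interval 312 to 1597, edgeR adjusted p = 0.00306). Dcn, Col3a1 and Bgn (biglycan) held 71.4% and 67.5% of the fibrillar fragments of the TKO-tagged libraries, against 3.09% and 0.935% in the Sox9-derived and 15.6% and 4.34% in the Ck19-derived.

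The chains of collagen I were lower than that of collagen III in this pair. Col1a1 had 9.20 and 8.40 CPM in the TKO-tagged libraries, 0.109 and 0.0302 CPM in the Sox9-derived and 0.188 and 0.244 CPM in the Ck19-derived. It rose against both (log2 fold change 7.69, SE 0.87, edgeR adjusted p = 0.0120 against Sox9-derived, and 6.08, SE 0.61, edgeR adjusted p = 0.00426 against Ck19-derived). Col1a2 had 31.7 and 21.9 CPM in the TKO-tagged libraries, 0.710 and 0.573 CPM in the Sox9-derived and 0.439 and 0.611 CPM in the Ck19-derived (log2 fold change 6.18 and 6.43, edgeR adjusted p = 0.00517 and 0.00213). Per kilobase, Col1a1 stood at 1.34, Col1a2 at 2.16 and Col3a1 at 7.29 in the TKO-tagged pair. Col16a1 was the fibrillar gene that went the other way, at 0.845 and 0.654 CPM in the TKO-tagged libraries, and fell against the Sox9-derived organoids (log2 fold change -5.16, SE 0.42, edgeR adjusted p = 0.00582) but was not called against the Ck19-derived (-2.0, edgeR adjusted p = 0.0804). Eln, elastin, was uneven within the pair at 1.18 and 10.4 CPM, against 0.109 and 0.151 CPM in Sox9-derived and 0.408 and 0.183 CPM in Ck19-derived organoids. It rose against both (edgeR adjusted p = 0.0432 against Sox9-derived and 0.0457 against Ck19-derived), though not without the second TKO-tagged library (edgeR adjusted p = 0.0931 and 0.0722).

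The other fibrillar genes had lower CPM than Dcn in the TKO-tagged pair. Bgn had 60.3 and 30.2 CPM in the TKO-tagged libraries, 2.30 and 0.845 CPM in the Sox9-derived and 5.43 and 1.04 CPM in the Ck19-derived (log2 fold change 5.66 and 4.56, edgeR adjusted p = 0.0167 and 0.0245). Lum, lumican, a relative of decorin, had 18.2 and 6.20 CPM in the TKO-tagged libraries, 0 in both Sox9-derived and 0.0314 and 0 CPM in the Ck19-derived, and rose against both (edgeR adjusted p = 0.0212 and 0.00713). Col5a1 and Col5a2, chains of the collagen that starts fibrils, had 12.8 and 5.95 CPM and 8.69 and 2.13 CPM in the TKO-tagged libraries and under 1 CPM in every organoid library. Col5a2 rose against both (edgeR adjusted p = 0.0337 and 0.0158), and Col5a1 rose against Ck19-derived organoids (edgeR adjusted p = 0.0136) and was not called against Sox9-derived (edgeR adjusted p = 0.0930). Within collagen VI the chains did not share a pattern. Col6a2 and Col6a3 were under 1 CPM in every organoid library and reached 10.3 and 6.10 CPM and 1.86 and 3.30 CPM in the TKO-tagged libraries, whereas Col6a1 had 11.2 and 6.08 CPM there and overlapped with the Ck19-derived organoids. Col6a1 was not called against either pair (log2 fold change 1.78 and 0.20, edgeR adjusted p = 0.172 and 0.839), and its fragment total on library totals was 1.5-fold lower than in the Ck19-derived pair. Col14a1 had 22.7 and 9.81 CPM in the TKO-tagged libraries and was not called either (edgeR adjusted p = 0.983 and 0.0628). Fbn1, fibrillin, which shares 20.1% of its exon bases with Gm9913, had 3.70 and 1.12 CPM in the TKO-tagged libraries and rose against Sox9-derived organoids (edgeR adjusted p = 0.0458).

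**Figure D4:**
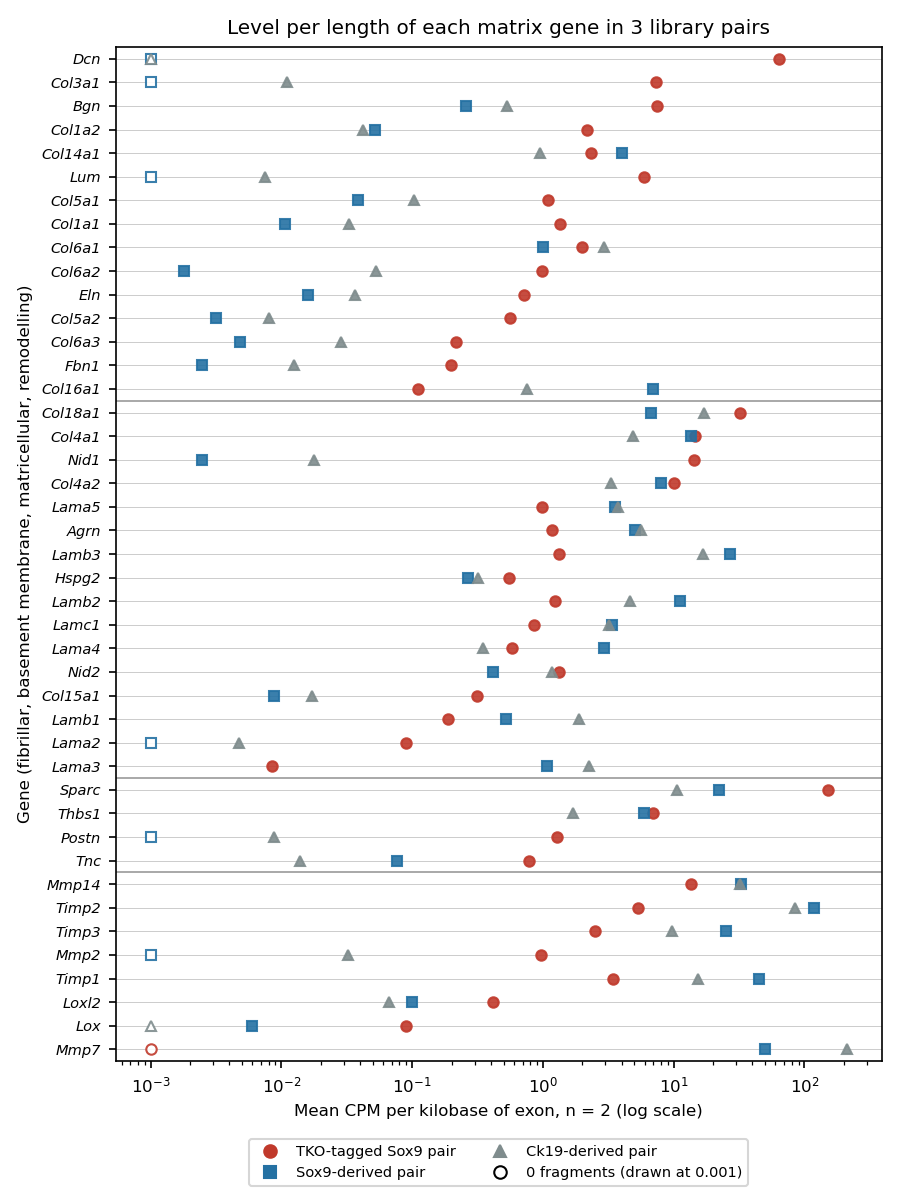
Mean CPM per kilobase of exon (log axis, n = 2 libraries) of each matrix gene in the TKO-tagged Sox9, Sox9-derived and Ck19-derived pairs; open symbols at the left edge stand for 0 fragments. Circles for fibrillar genes such as Dcn (64.1) and Col3a1 (7.29) lie right of both organoid symbols, while for Lamb3, Timp2 and Mmp7 the organoid symbols lie to the right.

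Basement membrane genes moved in both directions. Nid1, nidogen, which links laminin to type IV collagen (ENSMUSG00000005397, chromosome 13, 13437602 to 13512275), had 107.9 and 64.5 CPM in the TKO-tagged libraries, 0 and 0.0302 CPM in the Sox9-derived and 0 and 0.214 CPM in the Ck19-derived. Nid1 was thus nearly absent from the organoids, with 1 fragment and 7 fragments in the pairs (edgeR adjusted p = 0.00386 and 0.00396). The ratio of totals was 5927 (interval 1064 to 234128) against Sox9-derived and 784 (interval 381 to 1952) against Ck19-derived organoids. Its relative Nid2 had 8.90 and 4.12 CPM in the TKO-tagged libraries, 2.19 and 1.84 CPM in the Sox9-derived and 5.18 and 6.23 CPM in the Ck19-derived, and was not called (edgeR adjusted p = 0.0644 and 0.282). Col18a1 had 203.6 and 250.2 CPM in the TKO-tagged libraries and rose against the Sox9-derived (log2 fold change 3.07, SE 0.35, edgeR adjusted p = 0.0121) and Ck19-derived organoids (1.68, SE 0.26, edgeR adjusted p = 0.0122). Col4a1, at 149.9 and 66.9 CPM, and Col4a2, at 85.2 and 48.1 CPM, rose against Ck19-derived organoids (log2 fold change 2.35 and 2.38, edgeR adjusted p = 0.0233 and 0.0136). Against Sox9-derived organoids neither was called (edgeR adjusted p = 0.233 and 0.0974).

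Lamb3 and Lama3 fell in the TKO-tagged libraries against both organoid pairs. Lamb3 had 14.0 and 3.59 CPM there and fell by 3.52 on the log2 scale against Sox9-derived (edgeR adjusted p = 0.0376) and by 2.89 against Ck19-derived organoids (edgeR adjusted p = 0.0444). Lama3 had 0.131 and 0.0503 CPM and fell by 6.17 against Sox9-derived (edgeR adjusted p = 0.0209) and by 7.27 against Ck19-derived organoids (edgeR adjusted p = 0.0112). Lama5, Lamb1 and Agrn (agrin) fell against Ck19-derived organoids (log2 fold change -1.17, -2.56 and -1.51, edgeR adjusted p = 0.0368, 0.0311 and 0.0274). Against Sox9-derived organoids none of these 3 was called by edgeR (adjusted p = 0.0636, 0.821 and 0.122). Lamb2 fell against Sox9-derived organoids, with 4.75 and 10.3 CPM in the TKO-tagged libraries, 75.3 and 61.2 CPM in the Sox9-derived and 31.0 and 25.6 CPM in the Ck19-derived (log2 fold change -2.39, SE 0.46, edgeR adjusted p = 0.0311). Lama2, the alpha chain of muscle and mesenchymal basement membranes, rose against both but reached only 1.15 and 1.78 CPM, and Col15a1, another collagen of basement membrane zones, rose against both at 1.80 and 2.16 CPM. Lamc1, the common gamma chain, at 6.44 and 7.64 CPM, and Hspg2 (perlecan), at 8.95 and 6.79 CPM, were not called against either pair. Lama4, at 9.74 and 4.27 CPM in the TKO-tagged libraries, was not called either (edgeR adjusted p = 0.112 and 0.133). These falls moved with the sum of the 9 biliary markers, Spp1 among them. It was 6710 and 3610 CPM in the TKO-tagged libraries, 41220 and 36229 CPM in the Sox9-derived and 25905 and 24921 CPM in the Ck19-derived organoids. Of the 9, 6 were called lower against Sox9-derived and 4 against Ck19-derived organoids, beside 9.02% and 14.0% of all genes tested. The part of these markers was not tested.

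Mmp7 had 0 fragments in both TKO-tagged libraries, at least 2009-fold less than in the Sox9-derived pair (edgeR adjusted p = 0.00622) and at least 8524-fold less than in the Ck19-derived pair (edgeR adjusted p = 0.00110). Timp2 was at 33.2 and 8.18 CPM in the TKO-tagged libraries and fell by 3.66 against Sox9-derived (edgeR adjusted p = 0.0381) and by 3.22 against Ck19-derived organoids (edgeR adjusted p = 0.0304). Timp1, at 3.55 and 2.58 CPM, fell against Sox9-derived organoids (log2 fold change -2.90, SE 0.38, edgeR adjusted p = 0.0162), and had an adjusted p of 0.0878 against Ck19-derived. Mmp2, a gelatinase of mesenchymal cells, rose, with 4.50 and 2.06 CPM in the TKO-tagged libraries (edgeR adjusted p = 0.0270 against Sox9-derived and 0.0145 against Ck19-derived). Mmp14, at 68.1 and 47.6 CPM, was not called (edgeR adjusted p = 0.338 and 0.260). Timp3, at 30.1 and 10.8 CPM (edgeR adjusted p = 0.0569 and 0.179), and the crosslinking enzyme gene Loxl2, at 3.55 and 0.905 CPM (edgeR adjusted p = 0.131 and 0.103), were not called either, and Lox, at 0.863 and 0 CPM, stayed below the filter.

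Of the matricellular genes, Sparc reached 737.9 and 411.5 CPM in the TKO-tagged libraries and rose against Ck19-derived organoids (log2 fold change 4.60, SE 0.85, edgeR adjusted p = 0.0194). Against the Sox9-derived pair, with its gap between libraries, it was not called (log2 fold change 3.60, SE 2.57, edgeR adjusted p = 0.374). Postn, periostin, had 18.6 and 3.70 CPM in the TKO-tagged libraries, 0 in both Sox9-derived and 0 and 0.153 CPM in the Ck19-derived libraries, and rose against both (edgeR adjusted p = 0.0304 and 0.0229). Tnc, tenascin C, had 9.80 and 2.28 CPM in the TKO-tagged libraries and rose against Ck19-derived organoids (edgeR adjusted p = 0.0164), as did Thbs1 at 61.1 and 23.6 CPM (edgeR adjusted p = 0.0229). The first TKO-tagged library was the higher one for 31 of the 39 matrix genes at a mean of at least 1 CPM, including Timp2 (4.06-fold), Postn (5.03-fold) and Col3a1 (2.99-fold), while Eln was 8.82-fold higher in the second. In the organoids the first library was the higher one for 20 of 24 such genes (Sox9-derived) and 14 of 24 (Ck19-derived). The share of all genes is not given beside these counts.

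Other genes of the pathway were read from 3 lists. Among 69 other matrix components, 38 passed the filter between the organoid pairs, of which 2 rose in Sox9-derived organoids and the other 36 were not called by edgeR, while DESeq2 called 5. Spon2, a secreted spondin, had 27.3 and 20 CPM in Sox9-derived and 0.439 and 0.702 CPM in Ck19-derived organoids. Spp1, osteopontin, a ligand of integrins and Cd44, had 22830 and 18279 CPM in Sox9-derived and 7434 and 7744 CPM in Ck19-derived organoids (edgeR adjusted p = 0.0389 and 0.0467 for these genes). None of 36 tested processing and remodelling enzymes (50 listed) and none of 24 tested matrix receptors (29 listed) was called by edgeR between the organoid pairs. At an unadjusted p under 0.05 there were 10 enzymes and 10 receptors, beside 16.8% of all genes tested, and DESeq2 called 6 and 8, beside 9.08%. The most abundant were P4hb, a subunit of prolyl 4-hydroxylase, at 1321 and 1421 CPM in Sox9-derived and 1831 and 1284 CPM in Ck19-derived organoids, and the syndecan Sdc1, at 313.0 and 204.6 CPM in Sox9-derived and 1055 and 909.0 CPM in Ck19-derived organoids (edgeR adjusted p = 0.735 and 0.0698).

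In the TKO-tagged libraries, 10 of 50 tested matrix components rose and 15 fell against Ck19-derived organoids, beside 15.0% higher and 14.0% lower over all genes tested. Against Sox9-derived organoids 11 of 45 rose and 8 fell, beside 13.3% higher and 9.02% lower. Vtn, vitronectin, a plasma protein made by hepatocytes, had 4060 and 4881 CPM in the TKO-tagged libraries and under 0.1 CPM in every organoid library. In contrast, Efemp1, a fibulin, fell to 1.69 and 1.53 CPM, against 148.4 and 255.3 CPM in Sox9-derived and 257.2 and 204.7 CPM in Ck19-derived organoids (log2 fold change -6.17 and -6.41, edgeR adjusted p = 0.00439 and 0.00110). Of 43 tested enzymes, 11 rose and 7 fell against Ck19-derived organoids, and 6 rose and 5 fell against Sox9-derived organoids, beside the same shares of all genes. P4ha2, a catalytic subunit of prolyl 4-hydroxylase, fell to 4.69 and 4.22 CPM, against 61.6 and 85.9 CPM in Sox9-derived and 390.4 and 180.4 CPM in Ck19-derived organoids (log2 fold change -3.25 and -5.25, edgeR adjusted p = 0.00979 and 0.00391). Mmp12, the macrophage elastase, rose but was uneven at 119.5 and 4.19 CPM.

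Of 27 tested matrix receptors, 10 rose and 7 fell against Ck19-derived organoids, and 6 rose and 5 fell against Sox9-derived organoids, where 13.3% of all genes were higher and 9.02% lower. The syndecan Sdc4 had 537.9 and 436.6 CPM in the TKO-tagged libraries, 260.1 and 286.4 CPM in the Sox9-derived and 187.6 and 156.2 CPM in the Ck19-derived (log2 fold change 1.64 and 2.26, edgeR adjusted p = 0.0247 and 0.00781). Itgb6, the epithelial integrin beta chain that pairs with the alpha v chain, had 0.0188 and 0.0503 CPM in the TKO-tagged libraries, 49.6 and 41.0 CPM in the Sox9-derived and 21.1 and 19.9 CPM in the Ck19-derived (log2 fold change -9.45 and -8.35, edgeR adjusted p = 0.00386 and 0.00260). Bcam, a receptor for the laminin chain encoded by Lama5, fell to 27.1 and 38.5 CPM, against 374.2 and 315.6 CPM in Sox9-derived and 257.6 and 235.7 CPM in Ck19-derived organoids (log2 fold change -2.60 and -2.16, edgeR adjusted p = 0.0108 and 0.00746). Itga7, a laminin-binding alpha chain of muscle, rose against both, with 13.5 and 9.15 CPM in the TKO-tagged libraries, 1.34 and 3.50 CPM in the Sox9-derived and 0.126 and 0.122 CPM in the Ck19-derived (edgeR adjusted p = 0.0447 and 0.00304).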

How the data were processed

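Per the file headers, the authors deposited raw counts of fragments per gene, made by featureCounts v1.5.0-p3 on Ensembl release 87 models (GRCm38), counting fragments without strand at a mapping quality of at least 10. Per the submitters' processing notes, STAR 2.5.4b was used. Low mapping quality removed 33.2% to 40.9% of fragments per library, which lowers genes with near-identical copies; 0 duplicates were flagged, so PCR copies count as separate fragments and intervals cover counting error only. Columns were tied to samples by name: 6 columns were used and 4 matched no label and were not used. Genes were filtered (filterByExpr, minimum count 10), scaled by TMM and tested, two-sided, by edgeR 4.0.16 quasi-likelihood (R 4.3.3), each fit holding 4 libraries with 2 residual degrees of freedom. SE is the absolute log2 fold change over the square root of F. Printed levels are CPM on library totals without TMM. Folds against 0 use a floor of 3 fragments over a pair; other ratios of totals carry 95% exact binomial intervals. Replicates differed beyond sampling noise (chi-square per gene 448, 130 and 70.7 in the TKO-tagged, Sox9-derived and Ck19-derived pairs) and were kept apart.

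The members and lists were chosen with earlier results of these data known. Values are given for called members, the 3 most abundant and the largest change in each direction of a class, and for up to 4 and 2 called genes plus the 2 most abundant of each further list, from which a few stand in the text. The comparison of the TKO-tagged pair with the Sox9-derived organoids was added after the data were seen. Alternatives were relative log expression factors, library totals, DESeq2 1.42.0, limma-voom (limma 3.58.1), no filter, a replicate block and leaving out each library. The test was run on simulated counts whose spread followed the trend over genes. That check therefore does not cover genes with large gaps within a pair, such as Sparc and Lamb1.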

Additional observations from a re-analysis of the deposited data

How the results depend on the processing

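The count of genes called between Sox9-derived and Ck19-derived organoids depended on the setting: 95 with edgeR, but 1512 with DESeq2, 506 with no count filter and 5190 with the TKO-tagged columns in place of the Sox9-derived ones, and from 0 to 1394 when 1 library was left out. The count of matrix genes called was 3, against 11, 7 and 28 under those settings, and from 0 to 12 with 1 library left out; it was 0 without either Ck19-derived library, where 1692 and 1611 genes, 11 and 13 of them matrix genes, had an unadjusted p under 0.05. The TKO-tagged columns matched the same samples by name, but their markers went against the organoid label. The 5190 and 28 therefore compare other libraries and do not show an effect of processing. Relative log expression factors, library totals and limma-voom kept both counts within 1.5 times. Against Ck19-derived organoids the TKO-tagged pair gave 881 to 6976 genes and 6 to 37 matrix genes with 1 library left out. Against Sox9-derived organoids it gave 3876 genes, 5867 with library totals, 5982 with DESeq2, and 848 to 2026 with 1 library left out; for matrix genes that range was 7 to 17. The cause of these differences was not tested.

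Replicate numbers in the labels name libraries and are not said to mark a shared animal or day, and across 13864 genes the deviations of same-numbered organoid libraries correlated at only 0.084. With the number as a replicate block, 0 genes were called between the organoid pairs (2665 at an unadjusted p under 0.05) and 0 matrix genes (15 at that p); the adjusted p was 0.0983 for Col16a1 and Lama4 and 0.101 for Mmp7. The block gave 3319 genes for the TKO-tagged pair against Ck19-derived organoids, and 1214 genes and 11 matrix genes against Sox9-derived organoids.

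The TKO-tagged columns are other libraries, not another processing of the Sox9-derived ones. With them, 14 of the 27 matrix genes changed the sign of their log2 fold change over Ck19-derived organoids: Col5a1 (4.17), Col6a1 (0.20), Col16a1 (-2.0), Bgn (4.56), Col18a1 (1.68), Lamb2 (-1.17), Lamb3 (-2.89), Lamc1 (-1.16), Nid2 (0.96), Hspg2 (1.54), Timp1 (-1.38), Timp2 (-3.22), Timp3 (-1.17) and Mmp14 (-0.50). Lamc1 and Sparc changed sign under limma-voom (-0.05 and -3.37) and under the block (-0.06 and -1.82). With 1 library left out, log2 fold changes crossed 0 for Bgn (-1.92 to 0.60), Lama3 (-1.73 to 0.21), Lamc1 (-0.67 to 0.55), Hspg2 (-0.57 to 0.01), Agrn (-0.83 to 0.30), Sparc (-10.19 to 2.44), Mmp14 (-0.18 to 0.21) and Loxl2 (-0.19 to 2.11). None of these 8 was called by edgeR with all 4 libraries; Sparc was called without the first Sox9-derived library, at -10.19. Precision is limited by 2 libraries per pair and, for genes with few fragments, by depth.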
